A study of Rattus norvegicus with 22 samples.

Results

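Striatal projection neurons, also called medium spiny neurons, are the GABA neurons that make up most of the neurons of the nucleus accumbens (NAc). The 35 genes described here are known from earlier work to be enriched in these neurons, and they were taken from a list of names by exact symbol. The count files hold 17310 genes and list 32 of the 35. Eya1, Lmo3 and Ankrd63 are not listed and were not analysed here. All 32 had at least 1 read in each experiment, and 28 were abundant enough to be tested in experiment 1 and 27 in experiment 2, of which 26 were tested in both. The 4 listed but untested genes of experiment 1 were Ebf1, Sp9, Kcnip2 and Ido1. In experiment 2 the 5 were Isl1, Sp9, Kcnip2, Ido1 and Tmem158.

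RNA was taken from the NAc, core and shell, of 22 adult male Wistar rats, an outbred strain with no engineered allele. In experiment 1, 5 rats drank water only and 5 had free choice of 6% EtOH and water over 8 weeks. In experiment 2 all 12 rats could drink 6% EtOH or water over the first 4 weeks, were gavaged over the next 3 weeks, and drank freely again over the last 2. Gavage delivered 2.5 g/kg of 30% EtOH 2 times a day to the 6 EtOH gavage rats, and water to the 6 water gavage rats. Experiment 2 therefore holds no rat without EtOH, and its comparison is of forced EtOH on top of drinking against drinking alone. Each library came from 1 rat. Libraries of experiment 1 held 2962291 to 5247386 reads on genes and carried no strand information. Those of experiment 2 held 6713617 to 8765472 and were strand-specific, so EtOH was compared with water within each experiment only.

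Projection neurons of the striatum receive glutamate input from cortex and thalamus and dopamine from the midbrain, and they fall into a class with D1 dopamine receptors and a class with D2 dopamine receptors and the adenosine receptor of Adora2a. Both receptor types act through a shared machinery of G protein subunits, an adenylyl cyclase, phosphodiesterases and the phosphoprotein DARPP-32, encoded by Ppp1r1b. Transcription factors such as Bcl11b (CTIP2), Foxp1 and the retinoid receptors Rarb and Rxrg establish and keep this identity. The genes were therefore ordered as 13 of dopamine and cAMP signalling, 11 transcription factors and co-regulators, 7 of channels, calcium sensors, synapse and cytoskeleton, and 4 others. In bulk tissue, fewer projection neurons in a sample and less RNA of a gene per neuron cannot be told apart.

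Promoter windows were at hand for 24 of the 35 genes, 25 windows in all, each 300 bases long from 250 bases before to 50 bases after the start site (RefSeq, rat build GRCr8, not the build of the counts). Of these, 3 are shown as examples. They hold letters known to bind retinoid receptors, of which Rarb and Rxrg are in the set, or CREB, the factor at the end of the cAMP pathway. The capitals mark, in Rarb, both copies of a direct repeat of GTTCAC spaced by any 5 bases, in Gpr6 the cAMP response element TGACGTCA, and in Pde10a its short form TGACG, once on each strand.

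Rarb, chr15:11336142-11336441, plus strand: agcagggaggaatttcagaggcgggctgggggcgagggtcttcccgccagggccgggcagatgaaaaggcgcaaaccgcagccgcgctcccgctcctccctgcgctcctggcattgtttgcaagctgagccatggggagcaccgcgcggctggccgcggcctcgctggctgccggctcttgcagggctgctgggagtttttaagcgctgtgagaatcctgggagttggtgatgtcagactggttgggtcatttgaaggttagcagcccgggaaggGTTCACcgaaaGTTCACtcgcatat
Gpr6, chr20:46075202-46075501, minus strand: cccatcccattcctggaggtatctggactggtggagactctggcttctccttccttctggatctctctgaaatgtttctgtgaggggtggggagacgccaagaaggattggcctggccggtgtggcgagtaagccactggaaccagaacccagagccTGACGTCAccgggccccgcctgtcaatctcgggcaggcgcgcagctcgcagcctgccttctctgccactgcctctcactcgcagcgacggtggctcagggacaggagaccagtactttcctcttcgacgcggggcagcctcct
Pde10a, chr1:54765619-54765918, minus strand: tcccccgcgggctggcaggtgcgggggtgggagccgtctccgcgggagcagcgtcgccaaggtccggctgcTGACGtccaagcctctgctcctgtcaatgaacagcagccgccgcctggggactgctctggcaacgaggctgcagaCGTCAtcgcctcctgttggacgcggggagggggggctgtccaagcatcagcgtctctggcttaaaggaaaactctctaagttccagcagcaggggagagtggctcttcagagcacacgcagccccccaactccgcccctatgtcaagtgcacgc

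Among all 33469 windows of the RefSeq table, searched on both strands, the spaced repeat GTTCACNNNNNGTTCAC was in 3 (0.00896%), and Rarb was the 1 window of the set with it. TGACGTCA was in 1.83% of all windows and in 1 of the 25. The short form TGACG, which TGACGTCA contains, was in 21.2% of all windows and in 5 of the 25, those of Gpr6, Hpca, Lrrc10b, Pde10a and Strn. GTTCAC alone was in 10.1% of all windows and in 5 of the 25, GGGCGG in 33.1% and 13, and TATAAA in 14.2% and 2. The matches describe the letters of the windows and no binding was measured.

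Libraries that stood apart are described first. In experiment 2 the first principal component took 73.6% of the variance, and 3 libraries, water gavage rat 1 and EtOH gavage rats 1 and 2, had the lowest scores on it, -36.7, -85.4 and -48.4, against -17.6 to 49.0 in the other 9. The same 3 had the highest share of reads outside genes, 54.5%, 58.0% and 56.4%, against 46.1% to 52.8% in the other 9. In experiment 1 the first component took 25.9% of the variance, and water rat 5 and EtOH rat 3 had the highest summed level of cortical and hippocampal neuron markers, 903 and 836 CPM (counts scaled to library depth) against 252 to 499 in the other 8. Slc17a7, the vesicular glutamate transporter of cortical neurons, ranged from 302 to 2251 normalized counts (reads scaled to the mean library size) in experiment 1 and from 1.1 to 3315 in experiment 2. Counts and medians over the set are also given without these libraries, from fits added after seeing the data.

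Taken as a sum, the projection neuron genes were abundant in every library, although a few single genes were near the limit of detection. The summed level lay between 8115 and 13790 CPM in experiment 1 and between 9214 and 18610 CPM in experiment 2. DARPP-32 itself ranged from 2678 to 5646 normalized counts over the 10 rats of experiment 1 and from 6446 to 17549 over the 12 rats of experiment 2. The genes varied more between rats than tested genes did at the median. The highest rat exceeded the lowest by a median of 1.83-fold over the 28 tested genes in experiment 1, against 1.44-fold over all 8655 genes tested, and by 2.75-fold over 27 genes against 2.21-fold in experiment 2. Ptpn5, the striatum-enriched phosphatase STEP, was the steadiest in experiment 1 at 1.32-fold, and Isl1, a transcription factor, spread widest at 3.05-fold. In experiment 2 the narrowest range was that of Rarb at 1.88-fold, and the widest were those of its partner Rxrg at 8.77-fold and of Syndig1l, a relative of a synapse protein, at 7.04-fold.

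Experiment 1 asked what voluntary EtOH drinking did to the NAc. Most projection neuron genes had lower means in EtOH rats, but by small amounts, and none of the differences passed the test after adjustment. Of the 28 tested genes 25 had a log2 fold change below 0, and only Meis2 (0.03), Actn2 (0.02) and Foxp1 (0.02) lay above it, whereas 50.5% of all 8655 tested genes lay below 0. The median log2 fold change was -0.15 over the 28 and -0.001 over all tested genes. At an FDR under 0.05 edgeR's quasi-likelihood test and DESeq2 each called 0 of the 28, against 0.0% of all genes (0 of 8655). At an unadjusted P under 0.05 either tool called 1 of the 28, which was lower in EtOH. Of all genes, 2.58% were lower in EtOH at that P with edgeR and 2.46% with DESeq2. No tested gene of the set had groups that did not overlap, against 0.404% of all genes for groups lower in EtOH.

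**Figure D1:**
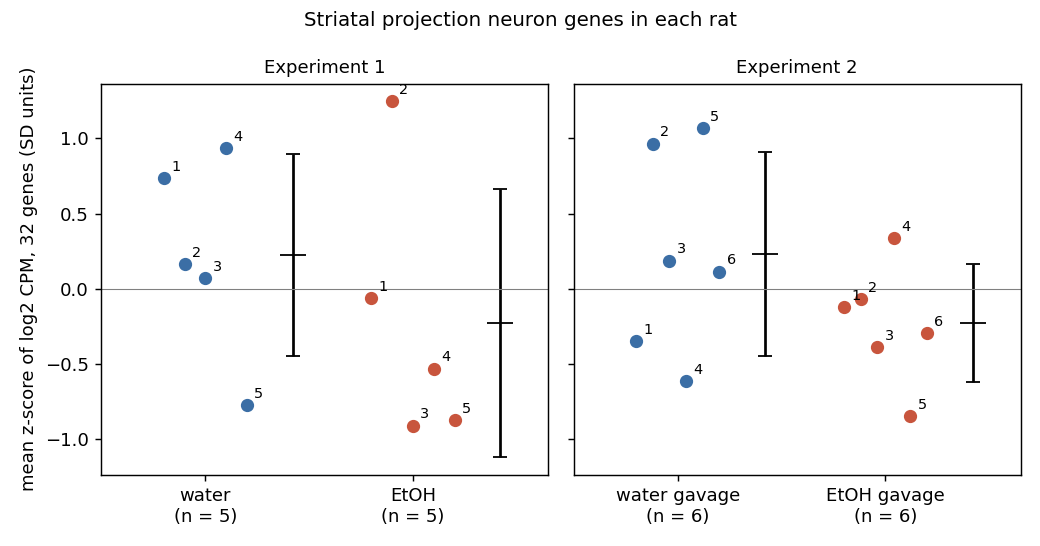
Mean z-score of log2 CPM over the 32 listed genes (vertical axis, SD units) for each rat, numbered by its label, with the group mean ± SD as a black bar. In experiment 1 EtOH rat 2 stands highest at 1.25 while the other 4 EtOH rats lie between -0.91 and -0.06, and in experiment 2 water gavage rats 2 and 5 stand highest.

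The genes went up and down together from rat to rat. Each gene's log2 CPM was set on a common scale as a z-score over the rats of the experiment and averaged over the 32 genes. In water rats 1 to 5 the mean z-scores were 0.73, 0.16, 0.07, 0.94 and -0.77. In EtOH rats 1 to 5 they were -0.06, 1.25, -0.91, -0.53 and -0.87. The groups overlapped at both ends, since the highest of all 10 rats was an EtOH rat and a water rat was among the 4 lowest. The means were 0.23 ± 0.67 (SD, n = 5) in water and -0.23 ± 0.89 (SD, n = 5) in EtOH, a difference of -0.45 that is smaller than either SD. EtOH rat 2 was the highest rat of all for 18 of the 32 genes, and EtOH rats 3 and 5 were the lowest for 12 and 11. Water rats 1 and 4 were above the mean of all rats in 29 genes each, as was EtOH rat 2, and water rat 5 and EtOH rats 3 and 5 in only 2, 3 and 2.

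**Figure D2:**
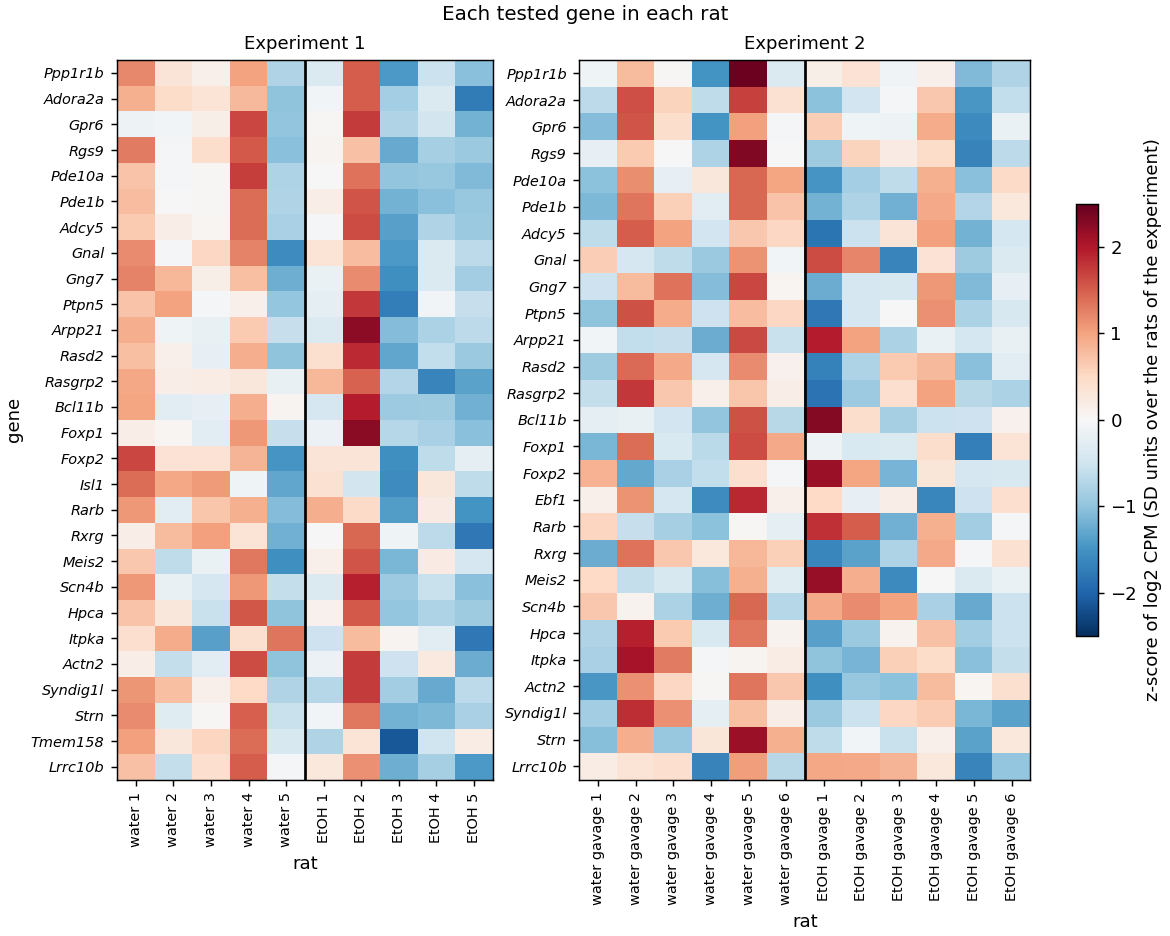
Z-score of log2 CPM (colour, SD units over the rats of the experiment) of each tested gene (rows) in each rat (columns), with a black line between control and treated rats. Columns of one colour in experiment 1 show rats in which nearly all genes were high (EtOH rat 2, water rats 1 and 4) or low (EtOH rats 3 and 5, water rat 5), while in experiment 2 EtOH gavage rats 1 and 2 hold both colours.

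In experiment 1 all 13 signalling genes were below 0, with a median log2 fold change of -0.15 (range -0.35 to -0.03), and none had an unadjusted P under 0.05. Ppp1r1b had 5189, 4188, 3962, 4945 and 3177 normalized counts in water rats 1 to 5 and 3521, 5646, 2678, 3361 and 2953 in EtOH rats 1 to 5. Apart from EtOH rat 2, every EtOH rat was below all water rats but the fifth. This gave a log2 fold change of -0.24 ± 0.17 (SE, edgeR FDR = 0.914), and an exact two-sided permutation test of the group means of log2 CPM gave p = 0.262, where the smallest p that 5 against 5 allows is 0.00794. The fold change was -0.46 without EtOH rat 2 and -0.15 without EtOH rat 3.

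Rgs9 encodes RGS9, which speeds the shut-off of G protein signals at dopamine receptors. Its counts were 1566, 1099, 1246, 1662 and 833 in the water rats and 1130, 1351, 793, 886 and 864 in the EtOH rats. Here EtOH rats 3 to 5 were below all but the lowest water rat. The result was a log2 fold change of -0.35 ± 0.17 (SE, edgeR P = 0.0659, FDR = 0.866; exact permutation p = 0.19). Pde10a encodes the phosphodiesterase that breaks down cAMP and cGMP in these neurons. It had 1451, 1142, 1162, 2023 and 895 counts in water rats and 1164, 1799, 840, 850 and 808 in EtOH rats. The same 3 EtOH rats, 3 to 5, were below every water rat, and EtOH rat 2 was above all but one. It stood at a log2 fold change of -0.28 ± 0.23 (SE, edgeR FDR = 0.928, exact permutation p = 0.302), which was -0.54 without EtOH rat 2 and -0.085 without water rat 4.

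Adora2a, the adenosine receptor gene of the D2 class, had 912, 816, 787, 894 and 551 counts in water rats and 710, 1076, 577, 656 and 453 in EtOH rats. Apart from EtOH rat 2, the EtOH rats were below all water rats but the fifth, for a log2 fold change of -0.18 ± 0.19 (SE, edgeR FDR = 0.954, exact permutation p = 0.365). Single rats moved this value, to -0.40 without EtOH rat 2, -0.29 without water rat 5, -0.12 without EtOH rat 3 and -0.06 without EtOH rat 5. Gpr6, an orphan receptor of the same class, differed less, at -0.05 ± 0.18 (SE). Adcy5, the main striatal adenylyl cyclase, stood at -0.14, and the G protein subunit genes Gnal and Gng7 that couple receptors to it at -0.15 and -0.16. Pde1b, a calcium-dependent phosphodiesterase, was at -0.17 and Rasgrp2, an activator of the small G protein Rap, at -0.15. Ptpn5, Arpp21, a further phosphoprotein regulated by cAMP, and Rasd2, known as Rhes, were each at -0.03.

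Of the 7 transcription factors tested in experiment 1, 5 were below 0 and the median was -0.10. Isl1, at 76, 65, 67, 43 and 27 counts in water rats and 52, 38, 25, 50 and 35 in EtOH rats, had the lowest log2 fold change of the set. The 3 highest rats were water rats, yet water rat 5 was the next to lowest of the 10. Its log2 fold change was -0.47 ± 0.27 (SE, edgeR P = 0.0963, FDR = 0.888, exact permutation p = 0.23). Meis2, a homeobox factor of the developing striatum, had the highest, 0.03 ± 0.08 (SE, edgeR FDR = 0.992, exact permutation p = 0.833), with 1632, 1439, 1502, 1743 and 1311 counts in water and 1554, 1794, 1370, 1563 and 1470 in EtOH rats. Both groups spanned nearly the same range, and the value lay between -0.035 and 0.078 with single rats left out, below 0 without EtOH rat 2 or water rat 5.

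Bcl11b had 1264, 1056, 1065, 1248 and 1104 counts in water rats and 1036, 1456, 966, 966 and 924 in EtOH rats. All EtOH rats but the second were below all 5 water rats. On average the log2 fold change was -0.10 ± 0.11 (SE, edgeR FDR = 0.962, exact permutation p = 0.381). It was -0.24 without EtOH rat 2, and between -0.064 and -0.051 without water rat 1 or EtOH rat 3, 4 or 5. In Foxp1, EtOH rat 2 was again far above all others and EtOH rats 3 to 5 were below every water rat, with 253, 247, 225, 324 and 207 counts in water and 234, 444, 200, 195 and 184 in EtOH rats. Its log2 fold change of 0.02 ± 0.21 (SE, edgeR FDR = 0.996, exact permutation p = 0.794) rested on EtOH rat 2 and was -0.30 without that rat. It was also below 0 without water rat 3 or 5, at -0.02 and -0.05, and it was 0.12 without water rat 4 and between 0.043 and 0.111 without EtOH rat 1, 3, 4 or 5. Foxp2, its relative, stood at -0.26, Rarb at -0.15 and Rxrg at -0.07.

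Of the 6 tested genes of channels, calcium sensors, synapse and cytoskeleton, 5 were below 0, with a median of -0.11. Syndig1l (-0.25), Strn (-0.23), which encodes the scaffold striatin, Itpka (-0.12), an inositol trisphosphate kinase, Scn4b (-0.11), the sodium channel beta-4 subunit, and Hpca (-0.07), the calcium sensor hippocalcin, all had P above 0.05, and so had Actn2 (0.02), an alpha-actinin of dendritic spines. Of the remaining genes, Lrrc10b stood at -0.19. Tmem158, a membrane protein gene induced by Ras, was the 1 gene of the set with an unadjusted P under 0.05. It had 129, 112, 117, 139 and 97 counts in water rats and 91, 113, 69, 95 and 110 in EtOH rats. In this gene EtOH rat 2 was the highest EtOH rat but lay among the lower water rats, and the groups overlapped. For this gene the log2 fold change was -0.31 ± 0.14 (SE, edgeR P = 0.0498, FDR = 0.866), and the exact permutation p was 0.0476. Without EtOH rat 3 it was -0.20.

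**Figure D3:**
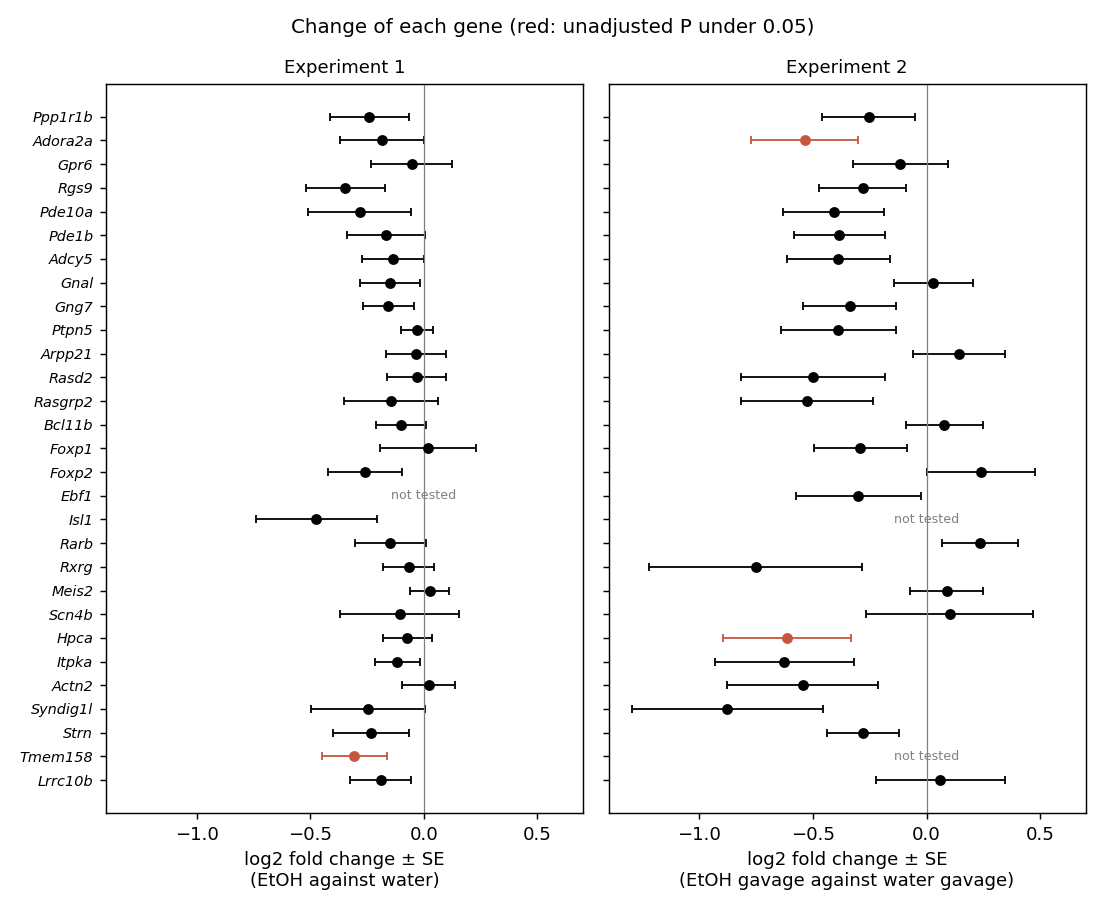
Log2 fold change ± SE (edgeR) of each tested gene, EtOH against water in experiment 1 and EtOH gavage against water gavage in experiment 2, in the order of the functional groups. Most points lie left of 0 in both experiments, and the red points, 1 in experiment 1 and 2 in experiment 2, had an unadjusted P under 0.05.

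Single rats weighed heavily on the comparison of experiment 1. EtOH rat 2 was the highest rat in these same genes and water rat 5 the lowest water rat. Leaving out either must widen the difference, so the counts without them are no test of the set. Without EtOH rat 2 all 28 genes were below 0 (51.3% of all genes), the median was -0.30 (-0.004 over all genes), the mean z-score difference was -0.92, and 16 genes had an unadjusted P under 0.05, all of them lower, against 3.78% of all genes. The 16 included Ppp1r1b at -0.46 ± 0.12 (SE, edgeR FDR = 0.447), Scn4b at -0.50, Syndig1l at -0.64, Pde10a at -0.54 and Bcl11b at -0.24, and 0.447 was the lowest FDR of the set. Without water rat 5, which like EtOH rat 3 was high in cortical markers, all 28 were again below 0 (4325 of all 8655 genes), and 6 had P under 0.05 (Rgs9, Gnal, Gng7, Foxp2, Isl1 and Tmem158) against 3.95% of all genes. In the opposite direction the count was 0 without any one of water rats 1 to 4 or EtOH rats 1, 3 and 4, where 2.01% to 2.45% of all genes were lower at that P, and the median shrank to -0.09 without water rat 1, -0.08 without water rat 4 or EtOH rat 3, and -0.06 without EtOH rat 5. With both water rat 5 and EtOH rat 3 left out, 25 of 28 genes were below 0 (49.9% of all genes), the median was -0.15, and Rgs9, Foxp2 and Isl1 had P under 0.05, against 3.19% of all genes lower.

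**Figure D4:**
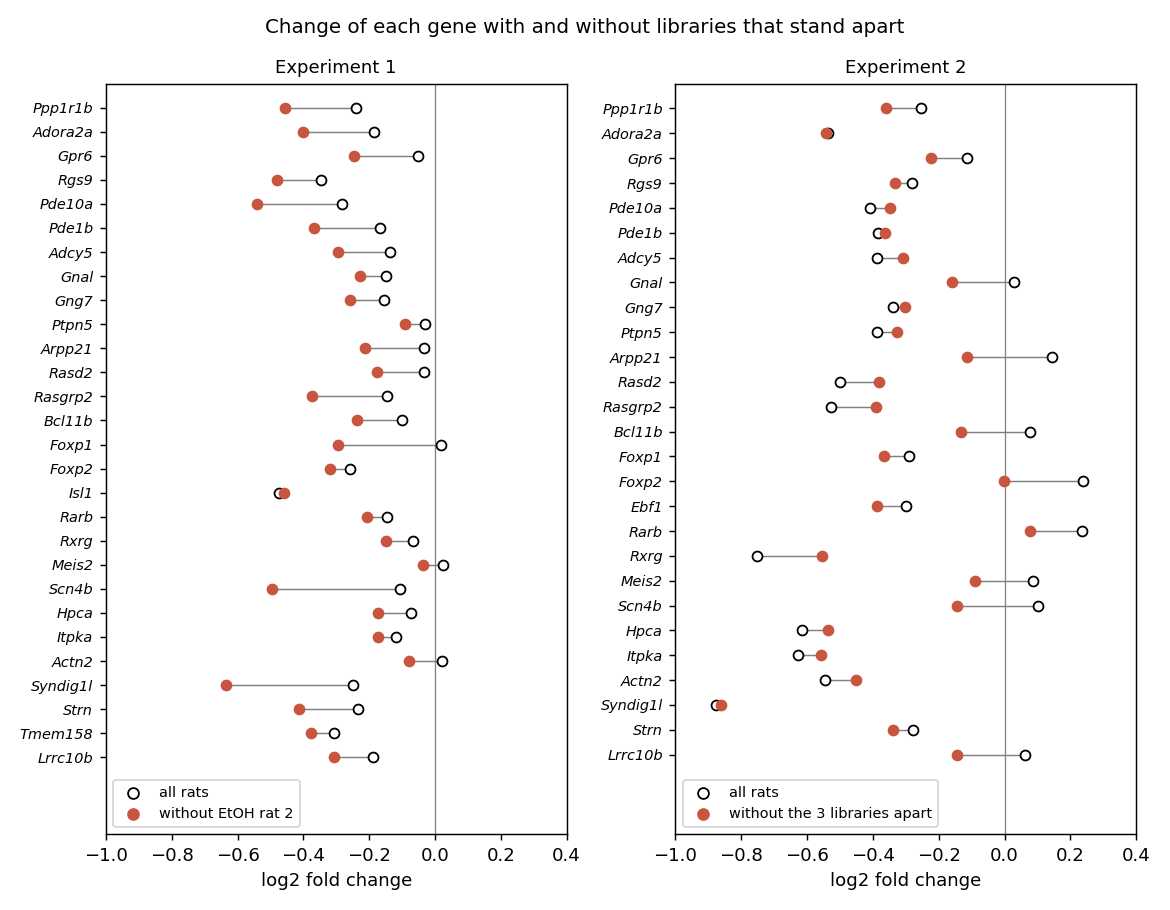
Log2 fold change of each tested gene with all rats (open points) and without EtOH rat 2 in experiment 1, or without water gavage rat 1 and EtOH gavage rats 1 and 2 in experiment 2 (red points). In experiment 1 nearly all points move left and all 28 lie below 0, and in experiment 2 the spread narrows until 26 of 27 lie below 0. EtOH rat 2 was the highest rat in these same genes, so the move to the left follows from the choice of rat.

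Markers of other cells differed between the same rats. The cortical and hippocampal list, 11 of whose 12 genes are listed and none at 0 throughout, had its highest mean z-scores in water rat 5 (0.91) and EtOH rat 3 (0.97), where the projection neuron genes were low, and its lowest in water rat 1 (-0.95), where they were high. EtOH rat 2, highest in the set, was near the middle for the cortical list at -0.12, as were EtOH rat 5, low in the set, at 0.21 and water rat 4, high in it, at -0.04. Its summed level ranged from 252 to 903 CPM in water rats and from 364 to 836 CPM in EtOH rats. The neuroblast list, with 9 of 10 genes listed and none at 0 throughout, summed to 378 to 473 CPM in water rats and 470 to 625 CPM in EtOH rats, and 5 of its 6 tested genes were higher in EtOH rats at P under 0.05, against 3.0% of all genes higher, with a median log2 fold change of 0.36. Of the interneuron list, 4 of 8 tested genes were lower at P under 0.05, against 2.58% of all genes, with a median of -0.33. Npy was at 0 in all libraries, and whether its reads were missed in counting was not tested. The summed interneuron level was 399 to 626 CPM in water and 428 to 489 CPM in EtOH rats. The share of reads outside genes was close in the groups, 49.5% ± 1.0 in water and 49.5% ± 0.72 in EtOH rats (SD, n = 5 each). The part of these lists in the result was not tested.

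**Figure D5:**
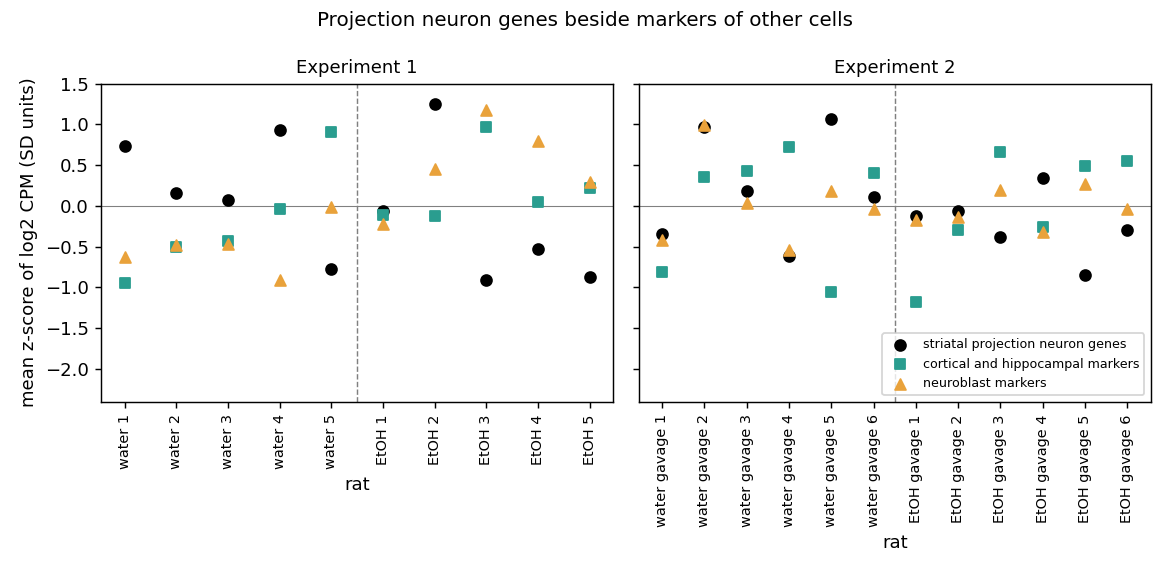
Mean z-score of log2 CPM per rat (vertical axis, SD units) for the projection neuron genes, cortical and hippocampal neuron markers and neuroblast markers, with a dashed line between control and treated rats. In experiment 1 the first are low where the cortical markers are high (water 5, EtOH 3), but EtOH 2 and 5 lie near 0 for the latter, and in experiment 2 the highest rats, water gavage 5 and 2, lie at -1.05 and 0.35 for cortical markers.

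A list of 21 other projection neuron genes, mostly receptors, neuropeptides and GABA enzymes, was also mostly lower in EtOH rats in experiment 1. Of its 19 tested genes, 15 were below 0 (50.5% of all genes), the median log2 fold change was -0.17, and 4 had P under 0.05, all lower in EtOH rats, against 2.58% of all genes. These were Chrm4, the M4 muscarinic receptor of D1 neurons, at -0.54 ± 0.13 (SE, edgeR FDR = 0.536), the D1 dopamine receptor gene Drd1 at -0.50 ± 0.17 (FDR = 0.83), Gpr149 at -0.68 ± 0.24 (FDR = 0.861) and Kcnj4 at -0.24 ± 0.10 (FDR = 0.866). The D2 receptor gene Drd2, added beside Drd1 after its value was seen, was at 0.003 ± 0.16 (SE). EtOH rat 2 had 919 normalized counts of Drd2, against 456 to 606 in the other EtOH rats and 498 to 711 in water rats. The neuropeptide genes Tac1, Pdyn and Penk stood at -0.27, -0.14 and -0.25. Whether the D1 and D2 classes differ was not tested. The mean z-scores of the list were highest in water rat 4 (1.03) and EtOH rat 2 (0.82) and lowest in EtOH rat 3 (-0.93) and water rat 5 (-0.83). For the 32 genes the 2 highest rats were these as well, while the 3 lowest were EtOH rats 3 and 5 and water rat 5.

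Experiment 2 asked whether forced EtOH on top of drinking changed the NAc. Again most projection neuron genes had lower means in treated rats, with larger differences and larger spread, and none passed the test after adjustment. Of 27 tested genes 19 were below 0, against 49.9% of all genes, and the median log2 fold change was -0.30 against 0.001 over all tested genes. Neither edgeR nor DESeq2 called any of the 27 at an FDR under 0.05, against 0.0% of all genes (0 of 8655). At an unadjusted P under 0.05 edgeR called 2 and DESeq2 3, all lower, against 0.624% of all genes lower with edgeR and 0.751% with DESeq2. No gene had groups that did not overlap, against 0.0116% of all genes for groups lower in EtOH gavage.

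The mean z-scores were -0.35, 0.97, 0.19, -0.61, 1.07 and 0.11 in water gavage rats 1 to 6, and -0.12, -0.07, -0.39, 0.34, -0.85 and -0.29 in EtOH gavage rats 1 to 6. Water gavage rats 2 and 5 were above every EtOH gavage rat, and the other 4 were within their range. The group means were 0.23 ± 0.68 and -0.23 ± 0.39 (SD, n = 6 each), so the difference of -0.46 was smaller than the SD of the water gavage rats. Water gavage rats 5 and 2 were the highest rat for 13 and 11 of the 32 genes. EtOH gavage rat 1 was the lowest for 9 and the highest for 6.

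Among the 13 signalling genes 11 were below 0, with a median of -0.38 and a range from -0.54 to 0.14. Adora2a had 779 counts at the lowest, 1179 at the median and 1744 at the highest of the water gavage rats, and 605, 804 and 1250 in the EtOH gavage rats. All EtOH gavage rats but rat 4 were below the 4 highest water gavage rats. Its log2 fold change was -0.54 ± 0.24 (SE, edgeR P = 0.0411, FDR = 0.675), and the exact permutation p was 0.0909, where the smallest p that 6 against 6 allows is 0.00216. Gpr6 of the same neurons stood at -0.12 ± 0.21 (SE).

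Ppp1r1b ranged over 6446, 9450 and 17549 counts (lowest, median, highest) in water gavage rats and over 7079, 9275 and 10108 in EtOH gavage rats. The medians were nearly equal and water gavage rat 5 lay far above the others. The estimate was -0.26 ± 0.20 (SE, edgeR FDR = 0.675, exact permutation p = 0.522), and -0.05 without water gavage rat 5. Rgs9 had 1966, 2413 and 4118 counts in water gavage and 1556, 2234 and 2678 in EtOH gavage rats, and water gavage rat 5 was again the highest. Here the log2 fold change was -0.28 ± 0.19 (SE, edgeR FDR = 0.675, exact permutation p = 0.286), and -0.11 without that rat. Pde10a had 2160, 3675 and 4595 counts in water gavage and 1816, 2378 and 3995 in EtOH gavage rats. EtOH gavage rats 1, 2, 3 and 5 were below all water gavage rats but the first. Its log2 fold change was -0.41 ± 0.22 (SE, edgeR FDR = 0.675, exact permutation p = 0.13). Rasgrp2 (-0.53), Rasd2 (-0.50), Adcy5 (-0.39), Ptpn5 (-0.39), Pde1b (-0.38) and Gng7 (-0.34) stood at like values, while Gnal (0.03) and Arpp21 (0.14) were above 0.

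The transcription factors were split in direction. Of 7 tested, 3 were below 0 and the median was 0.08. Foxp2 had the highest log2 fold change of the set, with 920, 1212 and 1743 counts in water gavage and 929, 1327 and 2527 in EtOH gavage rats. The 2 highest EtOH gavage rats, 1 and 2, were among the libraries that stood apart. Its log2 fold change was 0.24 ± 0.24 (SE, edgeR FDR = 0.676, exact permutation p = 0.433), and -0.001 without the 3 libraries. Without EtOH gavage rat 1 alone it was 0.04, and 0.16 without water gavage rat 2. Bcl11b had 1618, 1866 and 2761 counts in water gavage and 1670, 1899 and 3089 in EtOH gavage rats, with EtOH gavage rat 1 highest. It stood at 0.08 ± 0.17 (SE, edgeR FDR = 0.822, exact permutation p = 0.571), and it was -0.07 without that rat and -0.13 without the 3 libraries. It was 0.03 and 0.04 without water gavage rats 4 and 6, and 0.20 and 0.13 without water gavage rat 5 and EtOH gavage rat 3. Foxp1 was at -0.29 ± 0.20 (SE, edgeR FDR = 0.675, exact permutation p = 0.323), with 370, 568 and 773 counts in water gavage and 325, 466 and 579 in EtOH gavage rats. All 6 EtOH gavage rats were below the 3 highest water gavage rats, and without water gavage rat 5 the value was -0.19. The retinoid receptor partners had opposite signs, with neither at P under 0.05. Rarb was at 0.24 ± 0.17, while Rxrg was at -0.75 ± 0.47 (SE). Without the 3 libraries Rarb was at 0.077 ± 0.145 and Rxrg at -0.554 ± 0.314 (SE). Their levels were 1210, 1408 and 1692 counts against 1160, 1680 and 2186 for Rarb, and 141, 538 and 906 against 103, 263 and 661 for Rxrg.

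The group of channels, calcium sensors, synapse and cytoskeleton had the lowest median, -0.58, with 5 of 6 genes below 0. Syndig1l had the lowest log2 fold change of all, with 144, 328 and 766 counts in water gavage and 109, 154 and 366 in EtOH gavage rats. The 4 lowest EtOH gavage rats were below all water gavage rats but the first. The difference on the log2 scale was -0.88 ± 0.42 (SE, edgeR P = 0.0571, FDR = 0.675, exact permutation p = 0.108), and -0.55 without water gavage rat 2. Hpca had 2713, 4400 and 8203 counts in water gavage and 2053, 2775 and 4995 in EtOH gavage rats. Water gavage rat 2 was the highest and EtOH gavage rats 1, 2 and 5 were below every water gavage rat. It had a log2 fold change of -0.61 ± 0.28 (SE, edgeR P = 0.0479, FDR = 0.675, exact permutation p = 0.0909), and -0.40 without water gavage rat 2. Itpka (-0.63), Actn2 (-0.55) and Strn (-0.28) were lower with P above 0.05, and Scn4b was at 0.10 ± 0.37 (SE).

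The 3 libraries that stood apart divided the set. Of the 27 tested genes 17 had a lower mean log2 CPM in these 3 than in the other 9, 11 of them by more than 0.5, and 10 had a higher one, 5 of them by more than 0.5. Over all tested genes 27.7% were lower by more than 0.5 and 24.4% higher. Rxrg (-1.87), Actn2 (-1.19), Rasd2 (-0.93), Syndig1l (-0.89) and Rasgrp2 (-0.85) were the lowest, and Scn4b (0.89), Foxp2 (0.83), Rarb (0.57), Lrrc10b (0.51) and Gnal (0.50) the highest. Of the 27, only Rxrg and Foxp2 did not overlap between the 3 libraries and the other 9, against 39.0% of all 8655 tested genes. Water gavage rat 5 came next on the first component (-17.6) and in the share of reads outside genes (52.8%). This rat, the highest in the set, was kept, and leaving it out along with the 3 was not tested. With the 3 left out, the signs became nearly uniform. Then 26 of 27 genes were below 0, against 54.3% of all genes, with Rarb (0.08) the exception, the median was -0.34 (-0.02 over all genes) and the mean z-score difference -0.68. No gene then had P under 0.05, against 0.728% of all genes lower. Adora2a remained at -0.54 ± 0.26 (SE, edgeR FDR = 0.999), Hpca was at -0.54 ± 0.28 and Syndig1l at -0.86 ± 0.45. With the first component as a covariate in place of leaving libraries out, 26 of 27 were below 0, against 56.3% of all genes, the median was -0.24 and none had P under 0.05, against 1.09% of all genes lower.

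Single rats moved the number of genes with P under 0.05 in experiment 2 as well. It was 10 without water gavage rat 1, against 3.5% of all genes lower, and 12 without EtOH gavage rat 4, against 5.97%. It was 4 without water gavage rat 4 (0.404%) or EtOH gavage rat 3 (0.693%) and 2 without water gavage rat 6 (0.531%). It was 0 without water gavage rat 2, 3 or 5 or EtOH gavage rat 1, 2, 5 or 6, where 0.15% to 0.693% of all genes were lower at that P. Adora2a and Hpca were among the genes in each of the sets of 10, 12 and 4. The median log2 fold change shrank to -0.19 without water gavage rat 5, the rat highest in the set.

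Cortical markers did not follow the set in one direction. Water gavage rat 5, highest in the set, had 1.1 normalized counts of Slc17a7 and a summed cortical and hippocampal level of 43.8 CPM, the lowest of the experiment. Water gavage rat 2, next highest in the set, had 3028 counts and 575 CPM. EtOH gavage rat 5, lowest in the set, had 1892 counts and 453 CPM, and EtOH gavage rat 1, at a mean z-score of -0.12, had 14.3 counts and 47.3 CPM. That list summed to 43.8 to 659 CPM in water gavage and 47.3 to 518 CPM in EtOH gavage rats, and none of its 11 listed genes was at 0 throughout. The share of reads outside genes was 50.1% ± 3.1 in water gavage and 52.9% ± 3.4 in EtOH gavage rats (SD, n = 6 each). The part of either in the result was not tested. Of the other projection neuron genes, 9 of 18 tested were below 0 (49.9% of all genes), the median was -0.06 and none had P under 0.05. The 5 with the lowest P were Penk (-0.44), the enkephalin precursor, Chrm4 (-0.33), Gpr149 (0.54), Kcnj4 (-0.75) and Slc32a1 (-0.74), the vesicular GABA transporter. Neuroblast markers, at 245 to 363 CPM in water gavage and 280 to 467 CPM in EtOH gavage rats, had a median of 0.06 with none at P under 0.05.

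The values of both experiments stand side by side for 26 genes. Of these, 16 were below 0 in both, only Meis2 was above 0 in both (0.03 and 0.09), 7 were below 0 in experiment 1 and above in experiment 2, and Foxp1 and Actn2 the reverse. The experiments share no rats. Whether the changes of a gene differ between them was not tested, since the exposure, strand protocol and depth differ along with the experiment.

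Genes of the set near the limit of detection differed between the experiments by more than depth. Sp9, a transcription factor of D2 neurons, had 11 to 31 reads in every library of experiment 1 and 0 to 4 in the deeper libraries of experiment 2. Tmem158 had 70 to 161 reads in experiment 1 and 0 to 14 in experiment 2, where only water gavage rat 2 had more than a few. Of the 29 genes of the set with a mean of at least 20 normalized counts in experiment 1, these 2 had a mean under 2 in experiment 2, as did 17 of 9982 (0.17%) of all such genes. Kcnip2, the potassium channel partner KChIP2, had 0 to 1 and 0 to 2 reads, and Ido1, a tryptophan-degrading enzyme, 0 to 2 and 0 to 4. Nothing can be said of either from these counts, and whether reads of these genes were missed in counting was not tested. Ebf1, a factor of D1 neurons, had 10 to 36 reads in experiment 1, with 17.9 ± 3.8 normalized counts in water and 20.8 ± 9.7 in EtOH rats (SD, n = 5 each), and in experiment 2 it was tested at -0.30 ± 0.28. Isl1 was not tested in experiment 2, where it had 25 to 90 reads, with 60.9 ± 17 in water gavage and 47.2 ± 17 in EtOH gavage rats (SD, n = 6 each).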

How the data were processed

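RNA from the NAc of 22 rats, 5, 5, 6 and 6 per group, was sequenced, and the groups were read from the sample labels. The authors aligned reads to the rn6 genome (Rnor_6.0) with TopHat2, counted them over genes with HTSeq and deposited raw read counts per gene, without normalization. The HTSeq settings are not given in the sources used here. Counts were read as deposited, and the 5 summary lines of each file were kept out of library sizes. EdgeR 4.0.16 under R 4.3.3 was run on each experiment apart (TMM scaling, quasi-likelihood test) over the 8655 of 17310 genes whose mean normalized count exceeded the median of all genes, and P-values were adjusted by Benjamini-Hochberg over all tested genes. The SE is the log2 fold change divided by the square root of F. Log2 CPM used a prior count of 2. Named genes also had an exact two-sided permutation test (scipy 1.17.1).

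The genes and the lists of other projection neuron genes and cell types were chosen with earlier results of these data known. Full values were given for Ppp1r1b, Adora2a, Rgs9, Pde10a, Bcl11b and Foxp1, for genes with P under 0.05, and for the tested genes with the highest and the lowest log2 fold change. The fits were tested on simulated counts. Alternatives were DESeq2 1.42.0, its size factors, other filters, edgeR's newer mode, a joint fit of the 4 groups, a block for replicate number, and each rat left out. Leaving out 3 libraries of experiment 2 or 2 of experiment 1, and the first principal component as a covariate, were added after seeing the data. P-values measure the spread between rats, which were housed singly.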

Additional observations from a re-analysis of the deposited data

Results flagged for a closer look

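Within each group, the highest and the lowest rat of every tested gene and of the mean z-score were compared with the others by Dixon's ratio, the gap to the next rat as a share of the group's whole range. Of 114 groups examined 10 passed the 95% limit, where chance alone gives about 5.7 (1 in 20), and the groups are not independent because the genes move together.

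EtOH rat 2 of experiment 1 stood above the other 4 EtOH rats in 6 genes. The ratio was 0.716 for Ppp1r1b, 0.83 for Arpp21, 0.789 for Bcl11b, 0.807 for Foxp1, 0.853 for Scn4b and 0.874 for Syndig1l. Syndig1l had 644 normalized counts in that rat against 224 to 277 in the others, and Scn4b had 2557 against 897 to 1140.

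In experiment 2, water gavage rat 5 stood above the other water gavage rats in Arpp21 (ratio 0.698, 25203 counts against 11967 to 15961) and in Bcl11b (0.679, 2761 against 1618 to 1984). EtOH gavage rat 1, a library that stood apart, was above its group in Bcl11b (0.671, 3089 against 1670 to 2137), and EtOH gavage rat 4 in Gng7 (0.633, 13191 against 6661 to 9058). The mean z-scores of no group passed the limit.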

How the results depend on the processing

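At an FDR under 0.05 the number of genes was 0 in both experiments under every alternative run. The number at P under 0.05 is given with the share of all genes lower at that P in brackets. In experiment 1 it was 1 (2.58%), and it was 2 with no filter (2.48%) and 0 in edgeR's newer mode (2.54%). With all 4 groups in one fit it was 0 (0.416%). Without the 2 libraries highest in cortical markers it was 3 (3.19%). It ranged from 0 to 16 with single rats left out (2.01% to 3.95%). In experiment 2 it was 2 (0.624%), 1 with DESeq2 size factors (0.543%) and 1 with at least 10 counts in every sample (0.689%). With all 4 groups in one fit it was 4 (3.87%). It was 0 without the 3 libraries (0.728%) and 0 with the first component as a covariate (1.09%). With single rats left out it ranged from 0 to 12 (0.15% to 5.97%). The median log2 fold change stayed below 0 under every alternative, from -0.295 to -0.061 in experiment 1 and from -0.432 to -0.19 in experiment 2, and so did the mean z-score difference, from -0.917 to -0.278 and from -0.675 to -0.299. Mean z-score differences past 1.5 times the reported one came without EtOH rat 2 (-0.92) and water rat 5 (-0.70), and those under it by as much without water rat 4 (-0.28), EtOH rat 3 (-0.30), EtOH rat 5 (-0.29) or water gavage rat 5 (-0.30). Of the named genes, Foxp1 in experiment 1 was -0.05 with the replicate block, -0.001 with DESeq2 and between -0.296 and 0.123 with single rats left out, and Meis2 between -0.035 and 0.078. In experiment 2, Bcl11b was -0.132 without the 3 libraries, -0.095 with the first component and -0.065 to 0.199 with single rats left out, and Foxp2 was -0.001 and -0.039 under the first 2 of these. The cause was not tested. Replicate numbers did not pair the rats. The correlation of same-numbered rats ran from -0.125 to 0.144 in experiment 1 and from -0.759 to 0.835 in experiment 2. With the number as a block, 1 gene (Rgs9) had P under 0.05 in experiment 1, against 2.43% of all genes lower. The block gave 3 (Pde10a, Rasgrp2, Syndig1l) in experiment 2, against 3.37%. Medians were -0.16 and -0.262, with no change at the FDR limit.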

Other observations

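The remaining cell type lists are described next. As a yardstick for experiment 1, edgeR called 3.0% of all genes with a rise at P under 0.05 and 2.58% with a fall. Of the projection neuron genes it called 1 of 28, with a fall. In experiment 1, oligodendrocyte lineage genes had 1 of 11 at P under 0.05, Pdgfra of the precursor cells at 0.30 ± 0.06 (SE, edgeR FDR = 0.536), with a median of 0.05 over the list, and vessel and fibroblast genes had 3 of 6, all higher (Flt1 at 0.21, Cldn5 at 0.20 and Col1a1 at 0.64), with a median of 0.15. Foxj1 was the 1 tested gene of ependyma and choroid plexus, at 0.65 ± 0.28 (SE, edgeR FDR = 0.866). Astrocyte, microglia and general neuron genes had none at P under 0.05, with medians of 0.01, -0.02 and -0.04. The cortical and hippocampal list had 1 of 9, Cux2 at -0.70 ± 0.15 (SE, edgeR FDR = 0.536), although 7 of the 9 were above 0 and the median was 0.10. In experiment 2 no gene of these lists had P under 0.05, against 0.624% of all genes lower. The medians were -0.43 for the oligodendrocyte lineage, -0.30 for microglia, -0.18 for vessels and fibroblasts, -0.15 for astrocytes, -0.14 for interneurons, -0.03 for general neurons and 0.01 for the cortical and hippocampal genes. The median over the projection neuron genes, -0.30, was therefore not the lowest of the lists in that experiment.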
